A study of Mus musculus with 4 samples.

Results

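Open chromatin of mouse hepatocytes at 96 h after partial hepatectomy (PHx) was compared with that at 72 h, the last step of the time course. In PHx a part of the liver is cut away, after which the remaining hepatocytes divide until the mass of the organ is restored. Each of the 2 time points had 1 scATAC-Seq library, out of 4 libraries in the series. The members of the comparison were 25745 pairs of autosomal peaks, 1 peak of 72 h and 1 of 96 h, that overlapped only each other and of which the longer was at most 1.5 times the shorter. They came from 164113 peaks at 72 h and 77580 at 96 h, which formed 63104 one-to-one pairs of any length. The pairs held 35.8% of the autosomal counts of nuclei at 72 h and 48.7% at 96 h.

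Both libraries were made from livers of male C57BL/6J mice on a normal diet, labelled as 10 to 12 weeks old, and the groups differ in the time since surgery (72 h or 96 h). The study's methods give a slightly younger age at surgery. Hepatocytes were isolated by collagenase perfusion, and nuclei were tagged by the Tn5 transposase, which cuts accessible DNA. The sources used here do not give the number of animals behind the library of 72 h or of 96 h. With 1 library each, time and library cannot be told apart, no test was possible and no p-value is given. Intervals are exact 95% Poisson intervals that cover counting error only.

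A dividing liver must go on serving the body. Hepatocytes secrete fibrinogen and other clotting proteins, complement, and carriers of iron, and they raise many of these in the acute phase response, which IL6 drives through STAT3 together with C/EBP factors. They also make cholesterol and fatty acids under the SREBP factors, and glucose from amino acids and lactate during fasting. Open chromatin over a strongly transcribed gene can extend across its whole body, so that the cut count there reports on more than the promoter.

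The 72 h library held 25540258 counts over 5700 barcodes, and 4256 barcodes had at least 1000 counts and are called nuclei here (median 4841 counts). The 96 h library held 15809769 counts over 4899 barcodes, of which 3224 were nuclei (median 3681.5 counts). The deposited lists shared 762 barcodes and the nuclei shared 27. Markers of hepatocytes were high in both, and none of the 12 hepatocyte markers was at 0. Alb, the gene of serum albumin, had 632 CPM (counts scaled to a fixed common total) at 72 h and 720 at 96 h over each library's own peaks at the gene. These values are not corrected for peak length. The 12 added up to 4097 CPM at 72 h and 6067 at 96 h, and 11 were higher at 96 h. Among them were Fgb (192 and 659 CPM) and Pck1 (322 and 755 CPM), whose loci were called more open below. Here CPM refers to all counts of the nuclei in the library's own peaks, which differ in number between the libraries. The other cell types gave lower sums. The 14 endothelial markers added up to 410 CPM at 72 h and 269 at 96 h (single genes from 3.11 to 113 and from 0 to 80.6), 11 of 14 were lower at 96 h, and Cdh5 went from 13.7 CPM to 0. Counts exist only inside the peaks of each library, so a 0 says that no peak was called there. The 12 stellate and mesenchymal markers added up to 196 and 150 CPM, and the 10 lymphoid markers to 138 and 105. The 12 markers of Kupffer and other myeloid cells added up to 645 CPM at both times, most of it at Cx3cr1 (380 and 386 CPM) and Fcer1g (122 and 163 CPM). Of the 12, 6 were lower at 96 h, among them Csf1r at 72.4 and 38.1 CPM and Clec4f at 6.88 and 0 CPM, with Cd5l, Vsig4 and C1qa at 0 in both libraries. Clusters low in hepatocyte markers held 311 nuclei at 72 h, a share of 7.31% (exact binomial 6.54% to 8.13%), and 91 nuclei at 96 h, a share of 2.82% (2.28% to 3.45%). The remaining nuclei fell largely into clusters of 1 library: one held 113 nuclei of 72 h and 2945 of 96 h, one held 2789 and 11, and the last held 1043 and 177. These clusters rest on merged regions, where peak lengths differ between the libraries.

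The promoters of 5 genes are shown first, the fibrinogen genes because they opened most, Egf because its start pair was less open, and Hmgcs1 as a less open locus of cholesterol synthesis. Each is the 250 bases before the RefSeq start on the build GRCm38.p6, 5′ to 3′ on the gene's strand. Capitals mark matches, on either strand, to 4 short motifs: TTGCNNAA for C/EBP, TTCNNGGAA for STAT, GTTAATNAT for HNF1 and TCACNCCA for SREBP. Among 32851 RefSeq promoters of that length, 9.56% held the C/EBP letters, 4.06% the STAT letters, 0.737% the HNF1 letters and 3.67% the SREBP letters. Fga, Fgb and Fgg encode the 3 chains of fibrinogen, Egf encodes a ligand of the EGF receptor, and Hmgcs1 encodes an early enzyme of cholesterol synthesis.
Fga promoter, chr3:83025903-83026152, plus strand: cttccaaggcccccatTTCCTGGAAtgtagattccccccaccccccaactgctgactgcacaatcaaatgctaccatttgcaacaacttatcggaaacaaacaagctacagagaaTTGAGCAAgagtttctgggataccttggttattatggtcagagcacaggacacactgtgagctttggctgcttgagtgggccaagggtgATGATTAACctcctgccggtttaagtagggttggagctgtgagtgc
Fgb promoter, chr3:83049864-83050113, minus strand: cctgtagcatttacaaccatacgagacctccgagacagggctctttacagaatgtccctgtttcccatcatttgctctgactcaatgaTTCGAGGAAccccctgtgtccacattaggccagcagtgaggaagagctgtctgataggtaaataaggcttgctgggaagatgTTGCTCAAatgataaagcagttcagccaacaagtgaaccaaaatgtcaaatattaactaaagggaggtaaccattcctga
Fgg promoter, chr3:83007474-83007723, plus strand: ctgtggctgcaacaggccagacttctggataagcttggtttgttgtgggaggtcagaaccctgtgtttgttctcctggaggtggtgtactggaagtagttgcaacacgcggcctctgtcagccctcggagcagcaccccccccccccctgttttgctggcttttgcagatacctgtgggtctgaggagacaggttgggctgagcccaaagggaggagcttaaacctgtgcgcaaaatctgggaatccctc
Egf promoter, chr3:129755323-129755572, minus strand: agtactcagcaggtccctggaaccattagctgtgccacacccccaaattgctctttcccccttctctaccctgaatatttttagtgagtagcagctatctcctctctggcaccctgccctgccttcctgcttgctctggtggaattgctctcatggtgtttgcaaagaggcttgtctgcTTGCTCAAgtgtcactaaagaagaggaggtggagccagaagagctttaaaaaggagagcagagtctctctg
Hmgcs1 promoter, chr13:119690101-119690350, plus strand: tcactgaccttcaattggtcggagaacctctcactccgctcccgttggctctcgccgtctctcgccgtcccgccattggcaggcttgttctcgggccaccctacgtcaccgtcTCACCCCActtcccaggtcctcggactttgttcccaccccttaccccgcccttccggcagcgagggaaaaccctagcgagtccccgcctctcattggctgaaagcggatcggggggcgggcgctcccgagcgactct
The Fga promoter held 3 matches that do not overlap, STAT 234 bases, C/EBP 135 bases and HNF1 46 bases before the start. The Fgb promoter held a STAT match 162 bases and a C/EBP match 80 bases before the start, and the Fgg promoter held none of the 4. The Egf promoter held a C/EBP match 71 bases before the start, and the Hmgcs1 promoter an SREBP match 137 bases before it. A match describes the letters alone. All 5 windows lay inside a peak of 72 h, and all but that of Egf lay wholly inside a peak of 96 h.

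Few pairs differed by much. Of the 25745 pairs, 18014 had a mean scaled count of at least 100 and were compared; the rest were too shallow. Counts were scaled to equal totals, and the log2 ratio of 96 h to 72 h was centred on its median and freed of a linear trend on the log2 ratio of the peak lengths. The log2 ratios had an SD of 0.23 and ran from -1.01 to 1.28. Within 1.1-fold lay 47.7% of the pairs, and within 1.2-fold 76.6%. A pair was called more open or less open at 96 h when it moved by at least 1.5-fold and its Poisson intervals did not overlap. The call was made for 72 pairs that were more open (0.4% of those compared) and 107 that were less open (0.594%). The unscaled count, from the shallower library at 96 h, was higher there for all 72 pairs called more open and lower for all 107 called less open. The fold, the scaling and the limit on peak length fix this for any called pair, so it is no separate evidence.

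**Figure D1:**
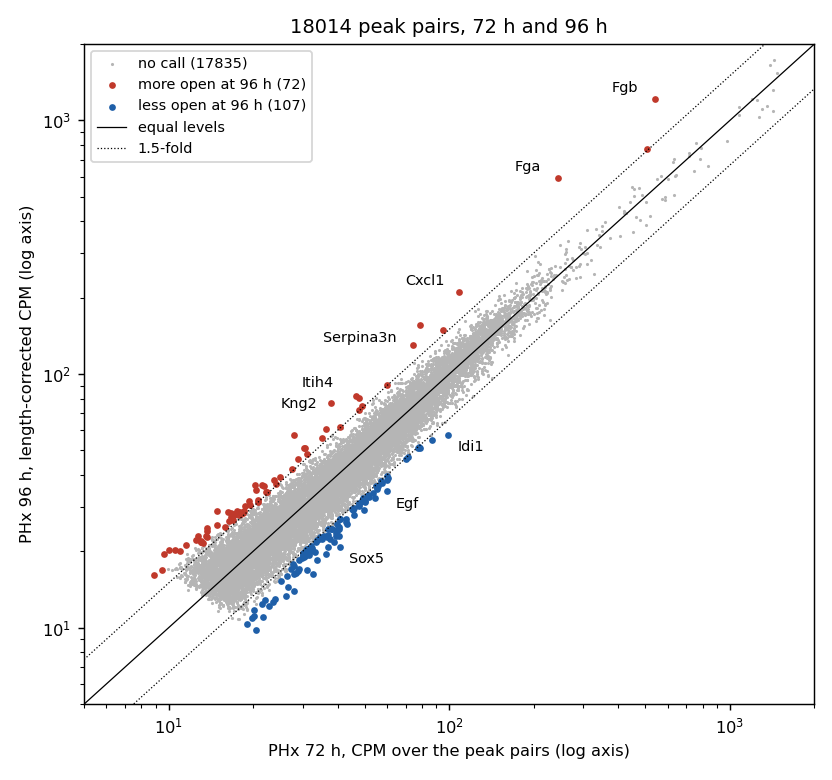
Length-corrected CPM at 96 h (vertical log axis) against CPM at 72 h (horizontal log axis) of each of the 18014 peak pairs compared, with pairs called more open in red, less open in blue and some genes labelled, the solid line at equal levels and the dotted lines at 1.5-fold. The called pairs of the highest level, those of Fgb, Fga and C3, lie above the line, and the less open pairs end at the level of Idi1.

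The direction of the calls varied with depth and length. The median mean scaled count was 179 in the more open pairs, 211 in the less open pairs and 258 in all pairs compared, so that most more open pairs were shallow. Of 1319 pairs with a mean scaled count of at least 800, 6 were more open and none was less open. At mean scaled counts of 100 to 200 the calls were 45 and 48 over 6749 pairs, at 200 to 400 they were 14 and 52 over 5779, and at 400 to 800 they were 7 and 7 over 4167. Of 456 pairs whose 72 h peak was longer than 4000 bases, 8 were more open, among them pairs over or near Fgb, Fga, C3, Cxcl1, Kng1, Itih4 and Serpina3n, and none was less open. A start site or its surroundings within 1000 bases was part of 26.4% of the more open pairs, 44.9% of the less open pairs and 44.8% of all pairs compared. The median GC content was 44.8%, 52.9% and 49.7% in the same order. A fit that also removed a trend on GC content kept 60 of the 72 and 84 of the 107 calls.

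Fibrinogen genes opened most. The pair over the Fga body, chr3:83028095-83037525, covers exons and UTRs of the gene and had 2129 counts at 72 h and 4240 at 96 h. That is 243 CPM (229 to 258) and 593 CPM (568 to 618), a 2.43-fold rise (log2 ratio 1.28). The neighbouring pair at chr3:83038369-83054346, which covers the start site of Fgb, had 4741 and 9835 counts, or 541 CPM (520 to 564) and 1211 CPM (1178 to 1246), a 2.24-fold rise (log2 ratio 1.16). At both, the 96 h library lay above the 72 h library with intervals far apart. The pair that holds the Fga promoter shown above had 465 and 611 counts, 53.1 and 76.3 CPM, and a log2 ratio of 0.52 that stayed under the fold asked for. The next pairs upstream of Fgb, past Plrg1, had log2 ratios of -0.13 and 0.02. Within 100000 bases on either side of the Fgb start, 5 of 7 pairs were above 0, with a median of 0.48.

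The kininogen genes lay in a stretch where every pair compared was higher. Kng1 and Kng2 encode precursors of kinins that also take part in contact activation of clotting. A pair in Kng2, chr16:23013883-23018215, lies 10794 bases from the start of the gene, over the start of another annotated transcript, and had 333 counts at 72 h and 733 at 96 h, or 38.0 CPM (32.5 to 44.3) and 76.9 CPM (69.2 to 85.2), and rose 2.0-fold. A pair in Kng1, chr16:23072973-23076133, had 246 and 508 counts, or 28.1 CPM (23.4 to 33.5) and 57.3 CPM (50.4 to 64.8), and rose 2.01-fold. Summed over its 4 pairs, the Kng1 locus went from 175 CPM (163 to 188) to 284 CPM (268 to 302), a log2 ratio of 0.70. The Kng1 start pair was the lowest of the 4 at 0.30 and had no call, and the other 3 lay at 0.65, 0.74 and 1.01. All 12 pairs within 100000 bases of the Kng1 start were above 0, from 0.23 to 1.01, and 5 of them were more open. The pair at Hrg, the histidine-rich glycoprotein gene next to them, had 38.0 and 57.1 CPM without a call.

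C3, the central protein of the complement cascade, lay under a pair of long peaks, of 25047 bases at 72 h and 23997 bases at 96 h, that covers most of the gene. Its counts of 4424 and 6142 made 505 CPM (484 to 527) and 770 CPM (743 to 797), a 1.52-fold rise close to the limit of the call. Over all peaks of the C3 locus the counts were 6286 and 7047, a log2 ratio of 0.44 without a call. The pair at Tnfsf14 downstream of C3 had 202 and 293 CPM, a log2 ratio of 0.54 without a call.

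**Figure D2:**
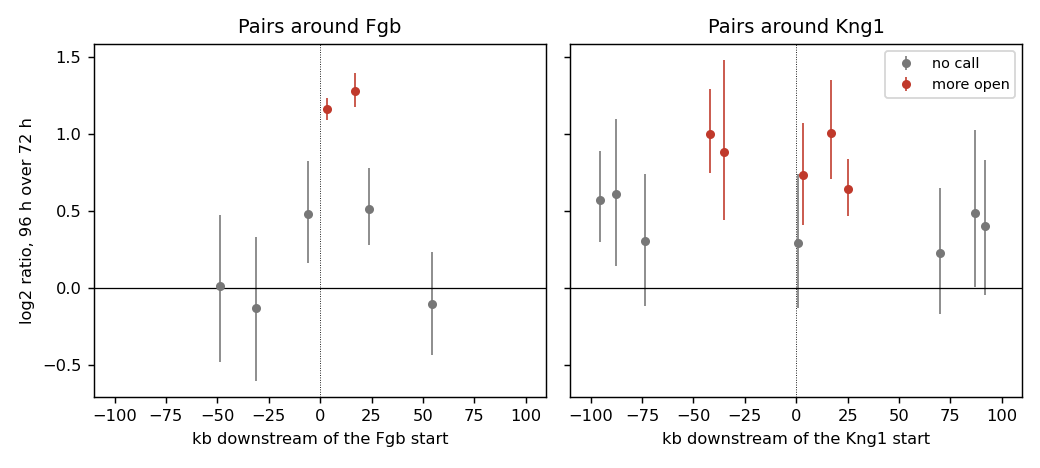
Log2 ratio of 96 h to 72 h with exact 95% intervals (counting error only) of every peak pair compared within 100000 bases of the start of Fgb and Kng1, plotted against the distance downstream of the start in kb along the gene's strand. All pairs around Kng1 lie above 0, whereas around Fgb the outermost pairs lie near 0.

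A further 7 of the strongest more open pairs lay outside the fibrinogen and kininogen genes. Cxcl1 encodes a chemokine that attracts neutrophils, and its pair chr5:90890426-90895582, over the start site, had 950 and 1655 counts, 109 CPM (99.0 to 119) and 210 CPM (196 to 225), a 1.93-fold rise. Itih4, an acute phase inhibitor family member, had 46.4 CPM (40.2 to 53.2) and 81.8 CPM (72.7 to 91.8) at an exonic pair, a 1.75-fold rise. An intergenic pair 6244 bases from the start of Serpina3n, a serine protease inhibitor gene of the acute phase, had 74.6 CPM (66.7 to 83.1) and 130 CPM (119 to 141), a 1.73-fold rise. Hamp, the gene of the iron hormone hepcidin, went from 188 counts to 308, or 21.5 CPM (17.4 to 26.3) to 36.5 CPM (30.9 to 42.7), a 1.67-fold rise. Fn1, which encodes fibronectin, rose 1.65-fold at a pair that overlaps a UTR, from 36.4 CPM (31.0 to 42.5) to 60.7 CPM (53.5 to 68.4). Bcl6, a transcriptional repressor gene, rose 1.68-fold at its start site, from 47.6 CPM (41.4 to 54.5) to 80.4 CPM (71.5 to 90.0). Neil3, a DNA glycosylase gene, rose 1.66-fold at an exonic pair, from 30.6 to 51.2 CPM. These 11 are among the 12 strongest of the more open pairs with a mean scaled count of at least 200.

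**Figure D3:**
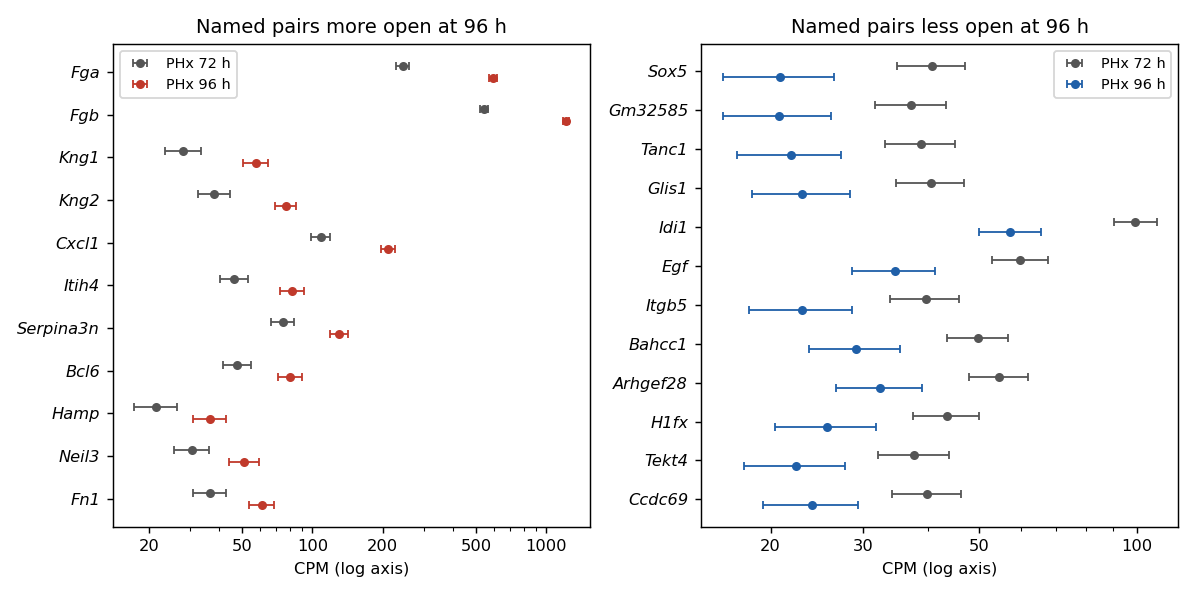
Accessibility in CPM (log axis) of 11 of the 12 strongest pairs called more open and the 12 strongest called less open at 96 h, with 1 point for each library and exact 95% Poisson intervals as bars. In each pair the intervals of 72 h and 96 h are apart, and the fibrinogen pairs span the highest values.

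The less open pairs had a median level of 37 CPM at 72 h, the same as all pairs compared, and the more open pairs one of 18.6 CPM. Sox5, a transcription factor gene, had 356 counts at 72 h and 137 at 96 h at an intronic pair, chr6:144070449-144071991. That is 40.7 CPM (34.9 to 47.1) and 20.8 CPM (16.2 to 26.4), a 1.91-fold fall. Idi1, an enzyme gene of the isoprenoid branch of cholesterol synthesis, had 870 and 434 counts at chr13:8892340-8895328, which overlaps a UTR, or 99.4 CPM (90.2 to 109) and 57.4 CPM (50 to 65.6), a 1.72-fold fall. The Egf start pair, chr3:129753530-129755619, had 525 and 238 counts, or 60.0 CPM (52.9 to 67.7) and 34.5 CPM (28.6 to 41.3), also a 1.72-fold fall. The other Egf pair, in an intron, had 37.6 and 44.7 CPM without a call, and the locus of both had 97.5 and 79.2 CPM, a log2 ratio of -0.30 without a call. Start site pairs of Glis1 (40.4 to 23.0 CPM), a zinc finger factor, Itgb5 (39.5 to 23.0 CPM), an integrin chain, Arhgef28 (54.6 to 32.4 CPM), and H1fx (43.4 to 25.6 CPM), a linker histone, fell by between 1.67-fold and 1.74-fold. Pairs of Tanc1, Bahcc1, Tekt4, Ccdc69 and the non-coding gene Gm32585 complete the 12, with log2 ratios from -0.82 to -0.72.

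Some of the same members, given as examples, stand in the earlier libraries as follows. All these values share the 72 h library with the comparison above. Against 72 h, the Cxcl1 pair had a log2 ratio of 0.38 at 0 h. The Idi1 pair had -1.19 at 0 h and -0.41 at 48 h, the Egf pair -0.67 and -0.31, and the Arhgef28 pair -1.21 and -0.55. The Itgb5 pair had 0.30 at 0 h and 0.24 at 48 h. Most of the more open pairs named here had no length-matched partner at 0 h or 48 h, including those of Fga, Fgb, Kng1, Kng2 and Itih4.

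Loci were then summed over all pairs that overlap a gene or the 2000 bases upstream of it. Of 9572 loci compared, 23 were more open (0.24%) and 35 less open (0.366%). At promoter pairs alone, 15 of 7659 genes were more open (0.196%) and 38 less open (0.496%). Among genes with at least 3 pairs, 3 were called, all more open. They include Kng1 and Ttpa, which encodes the carrier of vitamin E. Ttpa went from 29.9 CPM (25.0 to 35.5) to 45.3 CPM (38.7 to 52.7), on 262 and 336 counts, a rise close to the limit of the call. No single Ttpa pair was called. The pair deep enough to compare had a log2 ratio of 0.54, and the rest were below the minimum count. Over all its own peaks Ttpa had 2380 and 1680 counts, on 16522 and 7704 bases, lengths too unequal for a comparison. Plrg1 was called with a log2 ratio of 1.13, but it shares the fibrinogen pair. Vcam1, an adhesion molecule of endothelial and other cells, fell from 31.2 CPM (26.2 to 36.9) to 17.0 CPM (12.9 to 21.9). Cyp1b1 fell from 29.0 to 16.8 CPM, the AP-1 family gene Batf from 42.7 to 26.7, the myeloid receptor gene Sirpa from 78.7 to 51.3, the lipopolysaccharide co-receptor gene Cd14 from 55.0 to 36.1 and the forkhead gene Foxc1 from 70.2 to 46.2. These 6 loci were chosen after their values were seen. Of the endothelial markers 7 loci could be compared in the same way, 3 were above 0 (median -0.10), and of the myeloid markers 3, with 1 above 0 (median -0.06), and none of them was called. The myeloid median is that of Fcer1g, whose pair also covers the hepatocyte genes Apoa2 and Nr1i3. Over all pairs, without the clusters low in hepatocyte markers, 94 of the 107 less open pairs and 63 of the 72 more open pairs kept their calls.

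Gene lists were read by counts and medians beside all loci, whose median log2 ratio was 0.01 with an SD of 0.20. Of 20 acute phase genes 11 could be compared, 10 were above 0, and Fga, Fgb and Itih4 were more open. The list's median was 0.21. Orm2 and Orm3 in it share 1 pair, as do F7 and F10 in the next list. In the acute phase list Lcn2, the gene of lipocalin 2, stood against the rest at 63.5 and 45.1 CPM without a call. Of 27 complement and coagulation genes 18 were compared, 14 were above 0, and 3 were more open, C3 and Kng1 among them, with a median of 0.15. In the iron list 1 of 8, Hamp, was more open and the median was 0.16. In the matrix and cytoskeleton list 1 of 9, Fn1, was more open, while the median was -0.12. In the cholesterol list 1 of 10, Idi1, was less open, from 152 to 94.6 CPM, and the median was -0.03.

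In the lists of growth control and transcription factors no locus was called in sum. Of 18 growth factor receptors and ligands compared, 4 were above 0 and the median was -0.12. Their deepest members, Erbb4 and Egfr, had 253 and 250 CPM and 219 and 189 CPM at 72 h and 96 h. Of 6 mitosis genes compared, 5 were above 0 with a median of 0.29, and Cdk1, the kinase that drives entry into mitosis, had 107 and 129 CPM. The other deepest member, the cyclin gene Ccna2, had 110 and 104 CPM. The 17 G1 genes had a median of 0.01, with Btg2 at 1202 and 1211 CPM and Cdk6 at 366 and 369. The 12 immediate early genes had a median of -0.04, with Jun at 1473 and 1539 CPM and Egr1 at 1245 and 1204. The 18 hepatocyte transcription factor genes had a median of -0.04, with Nfib at 611 and 650 CPM and Nr5a2 at 491 and 479. The 11 genes of IL6 and STAT3 signalling had a median of 0.08, with Nfkbiz at 526 and 585 CPM and Lifr at 268 and 317. Single pairs of these lists were called: an Igf1 pair was less open (33.6 to 21.7 CPM), as was the Egf start pair, and pairs in Prox1 (17.2 to 28.2 CPM) and Nfib (24.1 to 36.9 CPM) were more open.

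Pairs leave out genes whose long peaks were cut differently in the 2 libraries. All own peaks over a gene and its 2000 bases upstream were therefore summed in a further comparison, added after the pair results had been seen, with the same limit of 1.5 on covered length and the same correction. Of 15532 loci with a peak in both libraries 3366 could be compared, 13 were more open (0.386%) and 18 less open (0.535%). Here CPM refers to counts over these loci and cannot be set beside the pair values. Fgg had 4349 and 8483 counts under 1 peak each, or 1025 CPM (982 to 1069) and 2378 CPM (2307 to 2450), a 2.32-fold rise. Fga and Fgb rose 2.24-fold each. Hp, the gene of haptoglobin, which binds free haemoglobin, had 2594 and 4270 counts, 611 CPM (578 to 645) and 1158 CPM (1110 to 1209), a 1.89-fold rise. Txnl4b shares peaks with Hp and Plrg1 with Fgb, so their calls are not separate.

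Metabolic genes appeared on both sides. Pck1, the gene of the rate-limiting enzyme of gluconeogenesis, rose 1.67-fold, from 1877 CPM (1819 to 1936) to 3141 CPM (3059 to 3224). Mat1a, which makes S-adenosylmethionine in mature liver, rose 1.66-fold, from 1227 to 2042 CPM. Fasn, the fatty acid synthase gene, fell 1.69-fold, from 12505 counts to 6449, or 2946 CPM (2873 to 3020) to 1739 CPM (1680 to 1800). Scd1, the stearoyl-CoA desaturase gene, fell 1.59-fold, from 944 CPM (903 to 986) to 594 CPM (559 to 630). Hmgcs1 fell 1.54-fold, from 3438 CPM (3360 to 3518) to 2233 CPM (2162 to 2307). Ass1, a urea cycle enzyme gene, fell 1.60-fold, from 3206 to 2008 CPM, and Hspa5, the gene of the chaperone BiP, 1.52-fold, from 1862 to 1223 CPM. Pck1 and Ass1, on opposite sides, stand in the same list of genes of the periportal zone.

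By list, 11 of 12 acute phase loci were above 0 with a median of 0.51, and Fgg, Fga, Fgb and Hp were more open. Orm1 (log2 ratio 0.55) and Orm3 (0.48), whose values set this median, share a long peak and are not separate. Those that missed the call included Itih3 (1025 and 1509 CPM, log2 ratio 0.56). Genes more open by their pairs but without a call over the whole locus included C3 (log2 ratio 0.44), Fn1 (0.46), Hamp (0.31) and Bcl6 (0.23). Serpina3n, near which a pair was more open, had 0.18 without a call. Itih4 was outside the limit on covered length and had 3309 and 2241 counts over all its peaks, of 21688 and 12439 bases. None of 7 cholesterol loci was above 0 (median -0.34, Hmgcs1 less open), and none of 7 fatty acid synthesis loci (median -0.32, Fasn and Scd1 less open). In the heat shock and unfolded protein list 1 of 9, Herpud1 at 0.02, was above 0, with a median of -0.32 and Hspa5 less open. Summed over peak pairs, which cover partly other genes of these lists, 4 of 8 heat shock and unfolded protein loci (median -0.01), 4 of 9 fatty acid synthesis loci (median -0.11) and 5 of 10 cholesterol loci were above 0. Of 12 xenobiotic loci 9 were above 0 without a call (median 0.21), and none of 7 loci of hepatocyte transcription factors was, with Rxra lowest at -0.54. Alb had 3680 and 2857 CPM, a log2 ratio of -0.37 without a call, the opposite direction to its uncorrected marker values given above. Of the 8 hepatocyte markers compared over whole loci 4 were above 0, with a median of 0.08. Ttr, Cps1 and Tat, which like Alb were below 0 here, were also higher at 96 h in the uncorrected marker values. Across the 281 loci with a mean scaled count of at least 2000, 132 were above 0 with a median of -0.01 and an SD of 0.29.

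**Figure D4:**
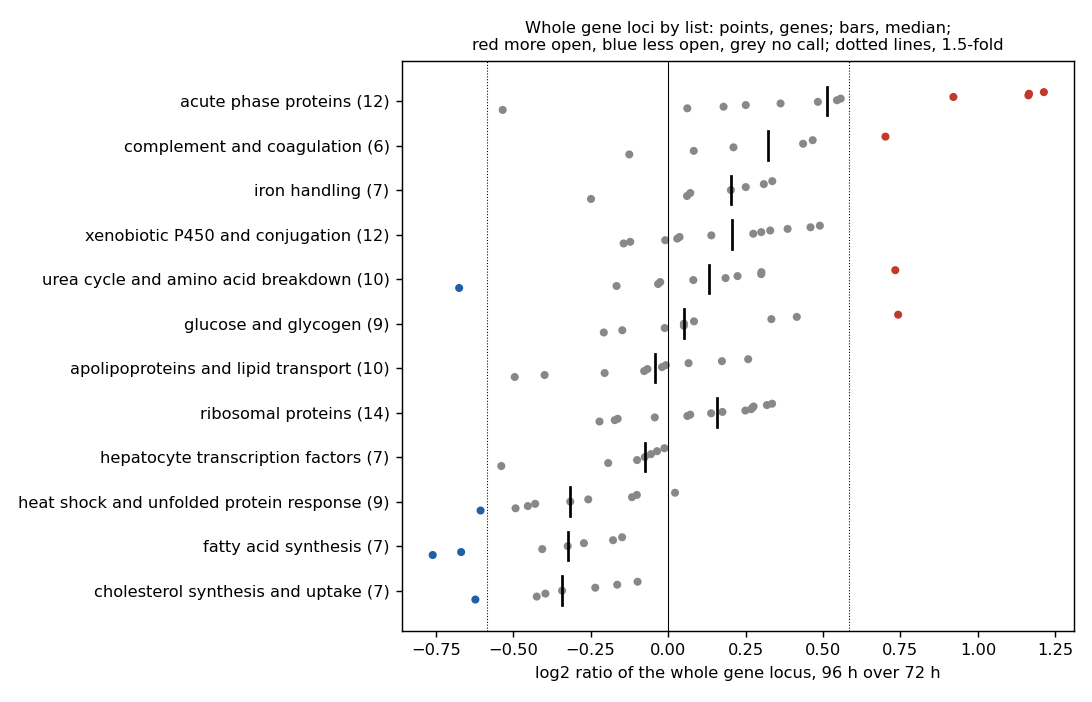
Log2 ratio of 96 h to 72 h of whole gene loci in 12 lists (number compared in parentheses), with 1 point per gene, the list median as a bar, more open loci in red, less open in blue and dotted lines at 1.5-fold. The acute phase list reaches from -0.53 to 1.21, and the fatty acid and cholesterol synthesis lists lie below 0 throughout.

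Levels were also taken at equal depth per nucleus. Fewer open nuclei and less signal per nucleus cannot be told apart in the summed counts, nor here, since at this depth the share of nuclei with a fragment follows the mean. Each nucleus was thinned to 500 fragments, which left 3211 nuclei at 72 h (1045 were too shallow) and 2495 at 96 h (729 too shallow). A fragment in the Fgb pair was found in 21.8% of thinned nuclei at 72 h (exact binomial 20.4% to 23.3%) and in 45.3% at 96 h (43.3% to 47.2%). Without thinning the shares were 33.4% and 60.3%. For Fga the thinned shares were 10.6% (9.52% to 11.7%) and 24.1% (22.4% to 25.8%), and for C3 21.5% and 30.8%. For Idi1 they were 4.42% (3.74% to 5.19%) and 2.73% (2.12% to 3.44%), and for Egf 2.96% and 1.56%. Unlike the CPM of pairs, these shares are not corrected for peak length. The 96 h peak was the shorter at each of these pairs, with 2989 and 2643 bases at Idi1 and 2090 and 1613 at Egf. In the clusters low in hepatocyte markers, 6 of 70 thinned nuclei had an Fgb fragment at 72 h and 4 of 21 at 96 h. Fgb is one of the markers by which these clusters were called low, so a low share there is partly fixed. The nuclei are also too few to compare.

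**Figure D5:**
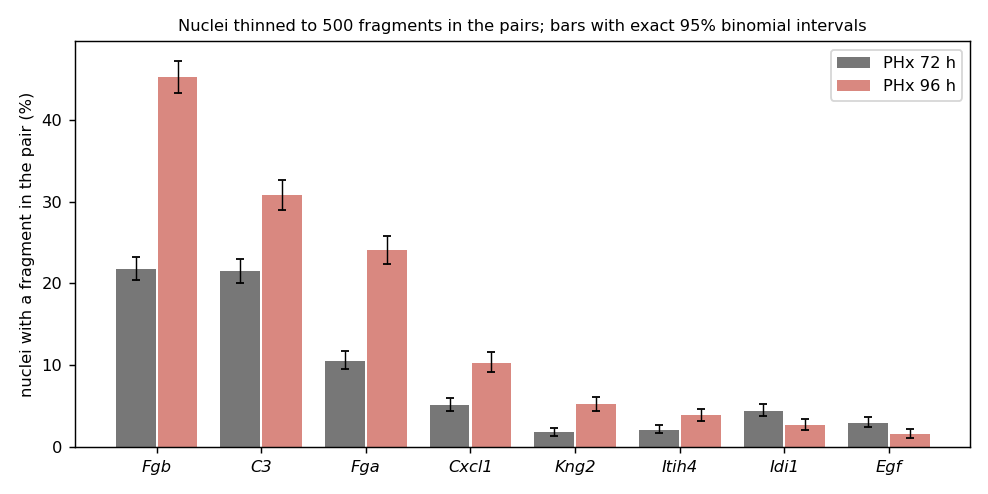
Share of nuclei, in percent, with at least 1 fragment in the named pair after thinning each nucleus to 500 fragments, at 72 h and 96 h, with exact 95% binomial intervals. Shares are not corrected for peak length. The shares at Fgb, Fga, C3, Cxcl1, Kng2 and Itih4 are higher at 96 h and those at Idi1 and Egf lower.

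The direction was the same at every depth of nuclei for nearly all members. In nuclei with 1000 to under 3000 counts (1183 at 72 h and 1294 at 96 h) 23 of the 24 named pairs kept their sign. The exception was Arhgef28 with 27 and 53 counts and a log2 ratio of 0.38. Bahcc1, with 27 and 38 counts, had only -0.02 there, against -0.76 over all nuclei. In nuclei with 3000 to under 6000 counts and with 6000 or more all 24 kept their sign. The classes are parts of the nuclei whose sum gave the calls, so they are not independent of them. Fgb had log2 ratios of 1.37, 1.21 and 1.16 in these 3 depth classes. Idi1 had -0.78, -0.88 and -0.60, while Egf varied more, with -0.81, -0.18 and -1.20.

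In the same sets of pairs 28 motifs were counted. In the central 300 bases of the part both peaks share, on either strand, the C/EBP letters TTGCNNAA were present in 22.2% of the more open pairs, 9.35% of the less open pairs and 13.6% of all pairs compared. Away from start sites the shares were 24.5% (13 of 53 pairs), 13.6% (8 of 59) and 18.2%. The STAT letters were present in 4 of 72, 0 of 107 and 4.64%. The letters GGGCGG, bound by SP and KLF factors, were present in 5.56%, 29.9% and 27.2%, but within start regions in 15.8%, 50% and 50.6% of 19, 48 and 8073 pairs. The NFY letters CCAAT were present in 38.9%, 23.4% and 30.7%, the SREBP letters TCACNCCA in 5.56%, 3.74% and 4.13%, and the HNF1 letters GTTAATNAT in 0 of 72, 0 of 107 and 1.33%. The other motifs, 22 in number, are given with their share among all pairs compared. Matches were searched to TGANTCA for AP-1 (7.94%), CAAAGTCCA for HNF4 (1.01%), AGGTCA for nuclear receptor element (20.5%), TGTTTAC for FOXA (4.89%), TTATGTAA for PAR bZIP D-box (0.994%), ATCGAT for ONECUT (1.39%), AGATAAG for GATA (3.17%) and CCGGAAG for ETS (6.35%). A further set was ACATTCC for TEAD (4%), CACGTG for E-box (5.42%), NTAGGTCA for RORE (2.91%), GCGCATGCG for NRF1 (0.633%), CCACNAG for CTCF (20%), GAANNTTC for HSF (6.8%) and GAAANNGAA for IRF (7.84%). The last were AAGATGGCG for YY1 (1.17%), TTCCCGC for E2F (4.41%), TGACGTCA for CREB and ATF (0.816%), AGGTCAAAG for PPAR and RXR direct repeat (0.727%), CAGGTG for E-box of SNAI and ZEB (22%), ACAATG for SOX (10.9%) and TTGGCA for NFI (17%). Their shares differed from those of all pairs compared by at most 4.96 percentage points in the more open and 9.84 in the less open pairs, the latter at the letters CAGGTG (12.1% of the less open pairs and 22.2% of the more open pairs). Motifs were searched singly and can overlap, and these shares describe letters in a window and were not tested.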

How the data were processed

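The deposited files hold whole-number counts of transposase cut sites per peak and cell barcode. The authors made them with Cell Ranger ATAC (the file headers give version 1.1.0, and the submitters' processing notes the build mm10), which aligns reads, removes duplicates and calls peaks, here separately for each library. Even numbers made up 88.1% of values at 72 h and 87.3% at 96 h, since both ends of a fragment are counted, so Poisson intervals rest on fragments (counts divided by 2). The peak files carry positions only.

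From these, counts of barcodes with at least 1000 counts were summed per library. CPM scales them to the counts in pairs (8756973 at 72 h and 7185377 at 96 h), with the trend removed at 96 h. Log2 ratios used a pseudocount of 5. The trend had a slope of 0.67 per log2 unit of length ratio, and log2 ratio and length ratio correlated at r = 0.40 across pairs before it was removed. The call (1.5-fold, intervals apart, mean scaled count of at least 100) was run on simulated data as a check of the script. Named pairs were the 12 largest called log2 ratios in each direction with a mean scaled count of at least 200, 1 per gene; named loci, called genes with at least 3 pairs; in the pair-based lists described, every called member, or the 2 deepest where none was called. Other genes are named as examples, chosen after their values were seen. 1 gene that the rules name is not reported here. Members and lists were chosen with earlier results of these data known. Gene models were the GENCODE annotation of GRCm38, and promoter sequences come from RefSeq. No doublet caller was run. Python 3.11.15, numpy 2.4.6, pandas 2.3.3, scipy 1.17.1, scikit-learn 1.9.0 and scanpy 1.11.5 were used.

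Alternatives changed the nuclei kept, the length limit, the trend, the overlap, the count minimum, the fold and the counting of fragments once per nucleus. Leaving out clusters found on merged regions, leaving out shared barcodes and the comparison of whole loci were added after seeing the data.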

Additional observations from a re-analysis of the deposited data

How the results depend on the processing

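No paired analysis was possible because each time point has 1 library. None of the named values reversed under the alternatives given here (the depth classes of nuclei, where the Arhgef28 pair did, are described above), and all called pairs that could still be compared kept their sign in each of them. The numbers of calls moved. With the longer peak at most 1.1 times the shorter, 9 pairs were more open and 4 less open among 1852, with 5 and 2 loci, and 5 and 0 whole loci among 249, since fewer were compared. Without the length trend there were 115 and 172 pairs and 37 and 55 loci; 53 of the 72 and 89 of the 107 calls were kept. With counts binarised per nucleus there were 18 and 31 pairs and 14 and 9 loci. A mean scaled count of at least 200 left 27 and 59 pairs and 15 more open loci. A fold of at least 2 left 3 and 1 pairs, 3 and 0 loci, and 4 and 0 whole loci. Promoter pairs alone gave 15 more open and 38 less open genes. Of the values of named pairs under alternatives, 309 of 318 stayed within their counting interval. Fgb ranged from 0.60 to 1.37 and left its interval in 3 of 14 settings. Fga ranged from 0.93 to 1.31 and left it in 1 of 13. With the length limit of 1.1 the Fn1 pair (0.46) and the Hamp pair (0.54) lost their calls. Clustering on the pairs themselves gave a cluster of 3045 nuclei of 72 h and 2864 of 96 h and a cluster of 1211 and 360. The latter was lower in hepatocyte markers, but neither passed the cutoff for low markers. The planned fit without low clusters on the pairs therefore gave no value. Without the 5% of nuclei with the most counts, 44 of 72 and 60 of 107 calls were kept, and without barcodes shared with another library 59 and 85. Barcodes with at least 3000 counts kept 52 and 81 of these calls, and every deposited barcode 51 and 80. The causes of these shifts were not tested beyond the number compared. Pairs cover regions found in both libraries, and the median pair had 324 counts at 72 h and 250 at 96 h. A change under 1.5-fold was never called.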
